A study of Mus musculus with 12 samples.

Results

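Fatty acid oxidation and PPARalpha target genes were followed in mouse liver RNA as a set of 35 genes, chosen by symbol from a list that covers mitochondrial and peroxisomal fatty acid oxidation, ketogenesis, omega oxidation, Ppara and targets of the receptor it encodes. Each of the 35 symbols had 1 entry in the deposited table, out of 24962 entries and 24033 symbols. All 35 had a mean log2 value of at least 4 over the libraries and so were among the 12965 genes tested. The samples were 12 liver libraries from wild-type C57BL/6 females, in 4 groups of 3. Intact females and ovariectomized females each received PBS (vehicle) or dexamethasone at 1 mg/kg, and livers were taken 6 h later. Dexamethasone activates the glucocorticoid receptor, and removal of the ovaries takes away most circulating oestrogen. Neither the age of the mice nor the time since surgery is stated in the labels. Whether each replicate was its own animal is not stated either, so the p-values cover only the spread among these 12 samples, which may be technical. Whole liver was used, so fewer cells of a type and less RNA per cell cannot be told apart.

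PPARalpha is a ligand-activated receptor that binds DNA with a retinoid X receptor partner and is activated by fatty acids. In the fasted liver it raises the genes that import fatty acids into mitochondria and peroxisomes, shorten them in the beta oxidation cycle and turn the acetyl-CoA into ketone bodies. Glucocorticoids rise during fasting too, and induction of Ppara by them is known from rodent hepatocytes.

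Levels are log2 expression values as the authors deposited them. They are not per length, so levels are compared between libraries for a gene and not between genes. Each difference is a limma log2 fold change ± SE (3 libraries against 3), and passing means an adjusted p (Benjamini-Hochberg, over all genes tested) under 0.05. Read depth cannot be read from these values. The median tested gene was at 8.82 to 8.86 in each library, and the root mean square difference between replicates was 0.172 to 0.32. Fkbp5, a chaperone gene induced by glucocorticoids, lay between 10.37 and 11.57 in the 6 vehicle libraries and between 12.20 and 13.23 in the 6 dexamethasone libraries, without overlap. Its rise was 1.28 ± 0.22 in intact and 2.29 ± 0.22 in ovariectomized females, and the difference between these responses passed (1.01 ± 0.31, limma adjusted p = 0.0332). The clock gene Per1, another known glucocorticoid target, rose in intact females (0.64 ± 0.16) and did not pass in ovariectomized females (0.36 ± 0.16, limma adjusted p = 0.091). For Per1 the difference between the responses did not pass (-0.28 ± 0.23, limma adjusted p = 0.387). Under vehicle Per1 was already higher in ovariectomized females (0.56 ± 0.16, limma adjusted p = 0.0241). Hepatocyte markers were abundant: the summed level of the 8 measured was between 22.07 and 22.41 in every library. Adipoq, Plin1 and Lep of the adipocyte list and all 3 skeletal muscle markers were at or below 0 on the log2 scale in every library.

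**Figure D1:**
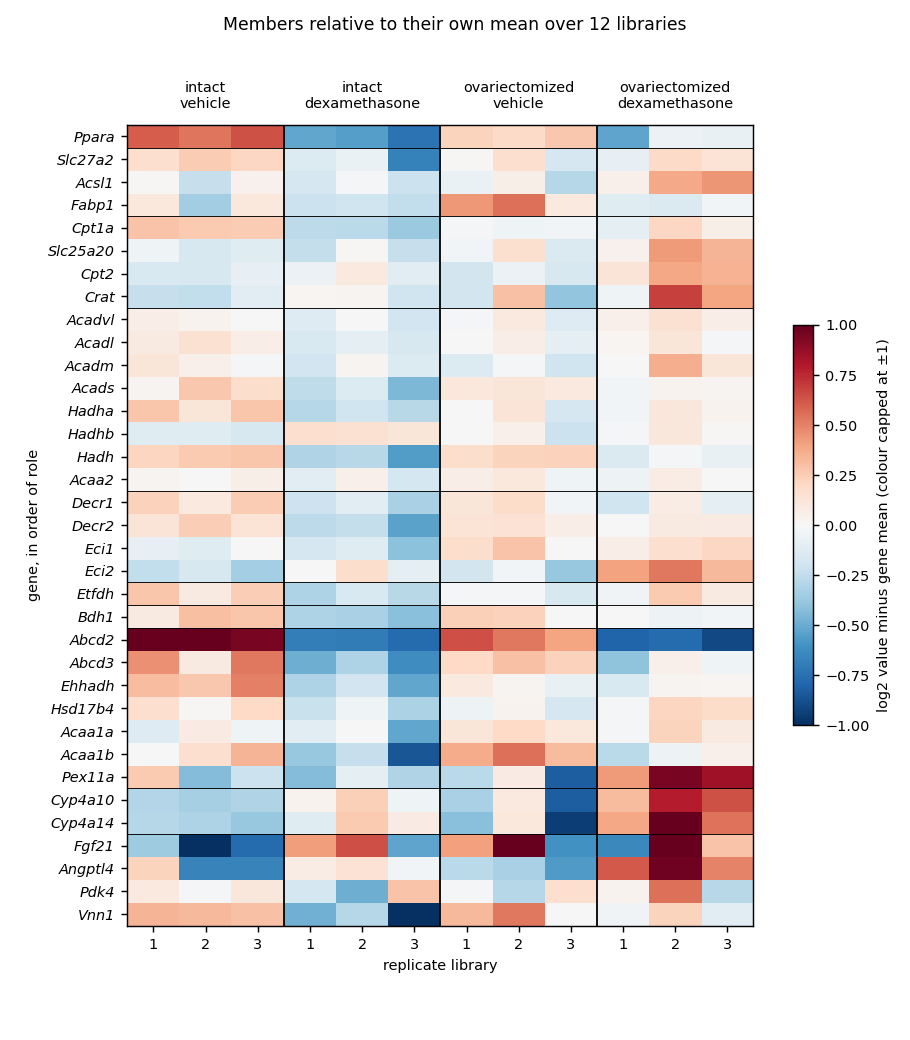
Each row is a gene in order of role, each column a library, and the colour is the deposited log2 value minus that gene's mean over the 12 libraries, capped at ±1. Most rows are high in intact vehicle and low in intact dexamethasone, while Pex11a, Cyp4a10, Cyp4a14 and Angptl4 are highest in the ovariectomized dexamethasone libraries.

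With dexamethasone in intact females, 17 of the 35 genes fell and 2 rose, while of all genes tested 25.9% fell, 22.8% rose and 48.8% changed in either direction. The median fold change of the 35 was -0.19 on the log2 scale, against 0.0013 over all genes tested, and 27 of the 35 had a negative value. Under quantile normalization 15 fell and 6 rose. Most of these genes are abundant, and abundant genes as a class were lower too: of the 907 genes with a mean of at least 12, a level chosen after the values were seen, 44.2% fell and 17.9% rose, with a median of -0.16. The 26 members at that level had a median of -0.36, and 15 of them fell.

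Ppara, the gene of the receptor itself, fell in intact females. Its level was 13.63, 13.56 and 13.67 in the vehicle libraries and 12.51, 12.48 and 12.29 in the dexamethasone libraries. Every dexamethasone library was below every vehicle library, a 2.29-fold fall (-1.20 ± 0.11, limma adjusted p = 1.06e-05). Only 1.26% of the genes tested changed by more in this comparison.

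The largest fall was that of Abcd2, which encodes a peroxisomal importer of very long chain acyl-CoAs. It stood at 11.46, 11.48 and 11.36 with vehicle and at 9.72, 9.72 and 9.64 with dexamethasone. The change was 3.34-fold (-1.74 ± 0.067, limma adjusted p = 3.91e-08), and 0.231% of the genes tested changed by more. Other peroxisomal genes fell as well. Abcd3, another importer of that membrane, changed by -0.83 ± 0.13. Ehhadh, the bifunctional enzyme of the peroxisomal cycle and a classical PPARalpha target, went from 14.04, 13.99 and 14.23 to 13.41, 13.53 and 13.21 (-0.70 ± 0.092). Hsd17b4, the bifunctional enzyme that also handles branched chains, changed by -0.32 ± 0.088, and by -0.17 with adjusted p = 0.0858 under quantile normalization. The thiolase gene Acaa1b changed by -0.66 ± 0.15, while its relative Acaa1a (-0.18 ± 0.12) and Pex11a, which promotes peroxisome division (-0.15 ± 0.23), did not pass.

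Entry into mitochondria is set by Cpt1a, which joins long chain acyl groups to carnitine. Its vehicle levels of 14.14, 14.12 and 14.11 and dexamethasone levels of 13.59, 13.59 and 13.48 did not overlap (-0.57 ± 0.07, limma adjusted p = 7.57e-05). The later steps of the carnitine shuttle did not follow it: Slc25a20, the carrier of the inner membrane (-0.04 ± 0.11), Cpt2 (0.10 ± 0.076) and the acetyltransferase gene Crat (0.14 ± 0.18) did not pass. Of the genes that bring in or activate fatty acids, the acyl-CoA synthetase and transporter Slc27a2 fell (-0.50 ± 0.15). Acsl1, the main long chain acyl-CoA synthetase (-0.07 ± 0.12), and Fabp1, the liver fatty acid binding protein (-0.18 ± 0.14), did not pass.

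In the mitochondrial cycle 4 of 8 genes fell and 1 rose in intact females. The falls were those of Hadh, the short chain hydroxyacyl-CoA dehydrogenase (-0.63 ± 0.071), Hadha (-0.48 ± 0.076) and the dehydrogenases for short and long chains, Acads (-0.44 ± 0.077) and Acadl (-0.24 ± 0.055). The Acadl value was -0.07 with adjusted p = 0.288 under quantile normalization. Acadm (-0.15 ± 0.093), Acadvl (-0.14 ± 0.068) and the thiolase gene Acaa2 (-0.11 ± 0.072) did not pass. Etfdh, which passes electrons from these dehydrogenases to ubiquinone, fell by 0.45 ± 0.081, and Bdh1, which makes beta-hydroxybutyrate, by 0.57 ± 0.076. Among the enzymes that prepare unsaturated fatty acids, Decr1 (-0.41 ± 0.084) and Decr2 (-0.52 ± 0.075) fell and Eci1 did not pass (-0.17 ± 0.087). Eci2 rose by 0.28 ± 0.097, but lost the call when vehicle replicate 1 or 3 or dexamethasone replicate 1 or 2 was left out (adjusted p = 0.0638 to 0.12), and was at 0.101 with the trends on length and GC content removed.

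Hadha and Hadhb encode the alpha and beta subunits of the mitochondrial trifunctional protein, and they moved in opposite directions in intact females. Hadha was at 13.63, 13.48 and 13.63 with vehicle and at 13.07, 13.16 and 13.08 with dexamethasone. Hadhb was at 10.41, 10.41 and 10.37 with vehicle and at 10.69, 10.68 and 10.65 with dexamethasone (0.28 ± 0.065, limma adjusted p = 0.00405). Neither pair of groups overlapped, and both calls held under each of the 18 alternatives run for this comparison. The 2 genes are divergent neighbours: in RefSeq (GRCm38.p6) 272 bases separate their starts. The 250 bases before the Hadhb start (chr5:30155003-30155252, plus strand) are shown for that reason, and the first 228 of them also lie in the 250 bases before the Hadha start on the minus strand.
Hadhb: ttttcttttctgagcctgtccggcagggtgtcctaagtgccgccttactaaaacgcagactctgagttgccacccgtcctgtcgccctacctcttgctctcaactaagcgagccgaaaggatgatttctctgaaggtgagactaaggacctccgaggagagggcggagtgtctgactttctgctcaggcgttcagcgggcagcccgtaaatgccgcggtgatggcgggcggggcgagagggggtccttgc
The Hadhb value is uncertain, because 62.4% of the 50-base words of its transcript also occur in the annotated genes Gm13910 and Gm9108 (GENCODE M21, GRCm38). None of the words of Hadha occurs in another gene.

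The remaining genes of the intact comparison are targets outside the oxidation cycles. Vnn1, a pantetheinase that is a sensitive PPARalpha target, went from 11.57, 11.55 and 11.53 to 10.75, 10.95 and 10.12 (-0.95 ± 0.19, limma adjusted p = 0.00143). The omega hydroxylase genes Cyp4a10 (0.39 ± 0.19, adjusted p = 0.109) and Cyp4a14 (0.40 ± 0.23, adjusted p = 0.17) had positive values that did not pass. The same held for Angptl4, a secreted inhibitor of lipoprotein lipase (0.43 ± 0.2, adjusted p = 0.101), and for the fasting hormone gene Fgf21 (0.94 ± 0.5, adjusted p = 0.138). Pdk4, the kinase that blocks pyruvate oxidation, was at -0.19 ± 0.21.

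Marker lists were counted in the same libraries, in which 22.8% of all genes tested rose and 25.9% fell. In intact females 5 of 8 stellate cell and fibroblast markers rose and 0 fell, and their summed level was 12.92 to 13.32 with vehicle and 13.53 to 13.74 with dexamethasone. Of 8 pericentral hepatocyte markers 5 fell and 0 rose, with summed levels of 18.60 to 18.79 and 18.16 to 18.59. Of 8 periportal hepatocyte markers 3 rose and 2 fell, with summed levels of 17.17 to 17.46 and 17.29 to 17.62. Of 8 hepatocyte markers 2 rose and 2 fell (50% called, near the 48.8% of all genes tested), with summed levels of 22.24 to 22.39 and 22.07 to 22.18. Of 8 sinusoidal endothelial markers 3 rose and 1 fell, with summed levels of 12.96 to 13.09 and 13.30 to 13.71. All 4 B cell markers fell, with a median of -0.61. In these lists no marker was at or below 0 in every library, and their part in the falls described above was not tested.

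**Figure D2:**
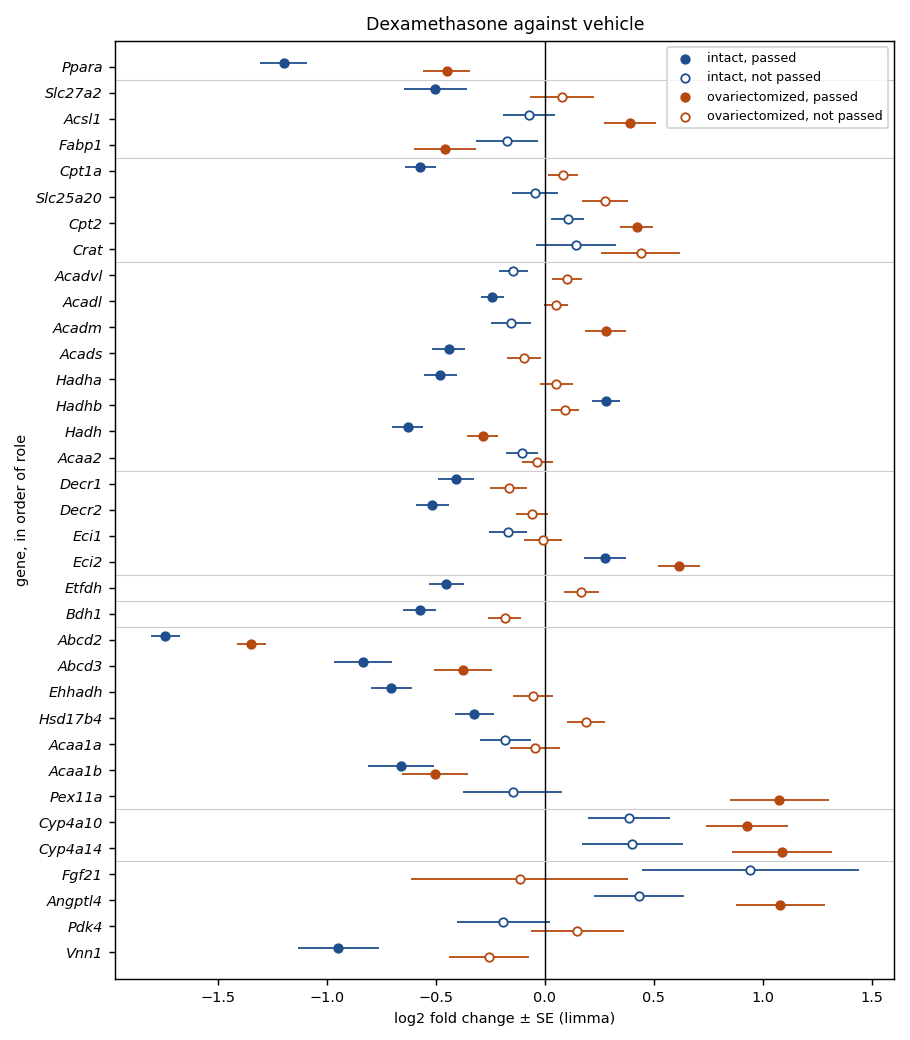
Points are log2 fold changes (dexamethasone against vehicle, n = 3 against 3 libraries) with SE bars for each gene in order of role, in intact (blue) and ovariectomized females (orange). Filled points passed at adjusted p under 0.05. For 32 of the 35 genes (91.4%) the intact value lies to the left of the ovariectomized value, against 51.3% of all genes tested.

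With dexamethasone in ovariectomized females, 8 of the 35 genes rose and 6 fell, 40% in all. These shares were near those of all genes tested, of which 21.3% rose and 19.4% fell (40.7% in either direction). The median was 0.05 on the log2 scale, against -3e-04 over all genes tested. Under quantile normalization 6 rose and 8 fell. The rises were led by Cyp4a14, Angptl4, Pex11a and Cyp4a10, and the falls by Abcd2. In the same comparison all 4 B cell markers and all 3 neutrophil markers fell, as did 3 of 6 cholangiocyte markers, with 0 rising in these lists. Of 8 sinusoidal endothelial markers 2 rose and 3 fell. Of 8 hepatocyte markers 3 rose and 0 fell, with summed levels of 22.09 to 22.24 with vehicle and 22.20 to 22.41 with dexamethasone. Of 8 periportal hepatocyte markers 4 rose and 1 fell, with summed levels of 17.10 to 17.53 and 17.63 to 17.69. Of 8 pericentral hepatocyte markers 1 rose and 1 fell, with summed levels of 18.43 to 18.55 and 18.69 to 18.78. The part of all these markers in the values below was not tested.

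Cyp4a14 and Cyp4a10 hydroxylate the far end of fatty acids and are among the strongest PPARalpha targets in mouse liver. Cyp4a14 stood at 14.96, 15.49 and 14.44 with vehicle and at 15.77, 16.46 and 15.92 with dexamethasone (1.09 ± 0.23, limma adjusted p = 0.00316). Cyp4a10 stood at 14.45, 14.87 and 13.95 with vehicle and at 15.09, 15.56 and 15.41 with dexamethasone (0.93 ± 0.19, limma adjusted p = 0.00237). The groups did not overlap for either gene, although vehicle replicate 3 was low for both. Cyp4a32 or Cyp4a31 hold 30.5% of the 50-base words of Cyp4a10, whose value is therefore uncertain, while the share was 0.2% for Cyp4a14.

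Angptl4 went from 11.51, 11.45 and 11.21 to 12.39, 12.76 and 12.28 in ovariectomized females (1.08 ± 0.2, limma adjusted p = 0.00164). Pex11a went from 9.70, 10.06 and 9.15 to 10.40, 10.92 and 10.82 (1.07 ± 0.23, limma adjusted p = 0.00313). Neither gene overlapped between the groups. Eci2 rose by 0.62 ± 0.097, from between 12.80 and 13.16 to between 13.51 and 13.71, and Cpt2 by 0.42 ± 0.076. Acsl1 (0.39 ± 0.12, adjusted p = 0.0222) and Acadm (0.28 ± 0.093, adjusted p = 0.031) also rose. The adjusted p of Acsl1 was 0.0504 to 0.0904 without vehicle replicate 1 or 3 or dexamethasone replicate 2 or 3, and 0.0839 under quantile normalization. That of Acadm was 0.0545 to 0.12 without these same libraries, 0.0525 under quantile normalization and 0.0529 when only the libraries compared were fitted.

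Abcd2 fell in ovariectomized females from 11.06, 10.94 and 10.80 to 9.61, 9.64 and 9.51, a 2.54-fold change (-1.35 ± 0.067, limma adjusted p = 5.61e-07). Ppara fell from 13.25, 13.22 and 13.30 to 12.50, 12.97 and 12.95 (-0.45 ± 0.11, limma adjusted p = 0.00651). Dexamethasone replicate 1 was the lowest of these libraries, and the groups did not overlap. Hadh fell by 0.29 ± 0.071. The other 3 falls were lost when single libraries were left out. They were those of Acaa1b (-0.50 ± 0.15, adjusted p = 0.0712 and 0.0816 without vehicle replicate 2 or dexamethasone replicate 1), Abcd3 and Fabp1. Abcd3 changed by -0.37 ± 0.13 (adjusted p = 0.0411), with adjusted p = 0.0577 to 0.164 when vehicle replicate 1, 2 or 3 or dexamethasone replicate 1 or 3 was left out, and 0.0581 with no filter on low values. As a count, 6 falls became 3 without vehicle replicate 2 or without dexamethasone replicate 1.

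Fabp1, which carries fatty acids in the hepatocyte cytosol, was at 17.43, 17.55 and 17.10 with vehicle and at 16.88, 16.86 and 16.97 with dexamethasone in ovariectomized females (-0.46 ± 0.14, limma adjusted p = 0.0231). Its adjusted p was 0.0623 to 0.0867 without vehicle replicate 1 or 2 or dexamethasone replicate 1 or 2. Its promoter is shown because it was the member window in which a PPAR direct repeat was found before the start. The motif searched was a pair of AGGTCA in the same direction with 1 base between them, on both strands, with at most 2 mismatches. The 250 bases before the Fabp1 start (RefSeq, GRCm38.p6, chr6:71199629-71199878, plus strand) hold a match with 1 mismatch on the minus strand, 67 to 55 bases before the start. Capitals mark this match and each AGGTCA, which reads TGACCT on the other strand; the first TGACCT is part of the match. The Cpt1a window (chr19:3323051-3323300, plus strand) is shown beside it because Cpt1a had the lowest adjusted p among the 15 members whose response differed between gonadal states, and its capitals mark a single AGGTCA on the minus strand.
Fabp1: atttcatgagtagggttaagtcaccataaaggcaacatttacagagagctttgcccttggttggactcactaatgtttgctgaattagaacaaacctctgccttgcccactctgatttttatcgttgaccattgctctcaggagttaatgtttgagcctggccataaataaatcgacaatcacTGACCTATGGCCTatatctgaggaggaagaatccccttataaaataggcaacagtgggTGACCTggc
Cpt1a: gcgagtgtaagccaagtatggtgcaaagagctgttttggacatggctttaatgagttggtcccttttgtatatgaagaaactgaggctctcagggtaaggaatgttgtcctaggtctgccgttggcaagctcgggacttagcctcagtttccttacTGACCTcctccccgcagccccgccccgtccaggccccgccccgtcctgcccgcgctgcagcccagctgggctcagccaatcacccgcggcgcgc

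RefSeq windows of 300 bases (250 before and 50 after the start) matched 26 of the 35 genes. No window was available for Abcd2, Cyp4a10, Cyp4a14, Angptl4, Vnn1, Crat, Acaa2, Decr1 and Hsd17b4, so these were not searched. A PPAR direct repeat was found in 2 of the 26 (7.69%), Fabp1 and, just after its start, Slc25a20, and in 4.4% of all 27025 genes with a window. A single AGGTCA, a search added after the values were seen, was found in 5 of the 26 (19.2%) and in 18.1% of all genes. The glucocorticoid receptor palindrome (GNACA, 3 bases, TGTNC, on both strands), matched exactly, was found in 0 of the 26 and in 0.537% of all genes. The oestrogen receptor palindrome (GGTCA, 3 bases, TGACC, on both strands), with at most 1 mismatch, was found in 0 of the 26 and in 0.995% of all genes. These are matches of letters in short windows and say nothing of binding.

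**Figure D3:**
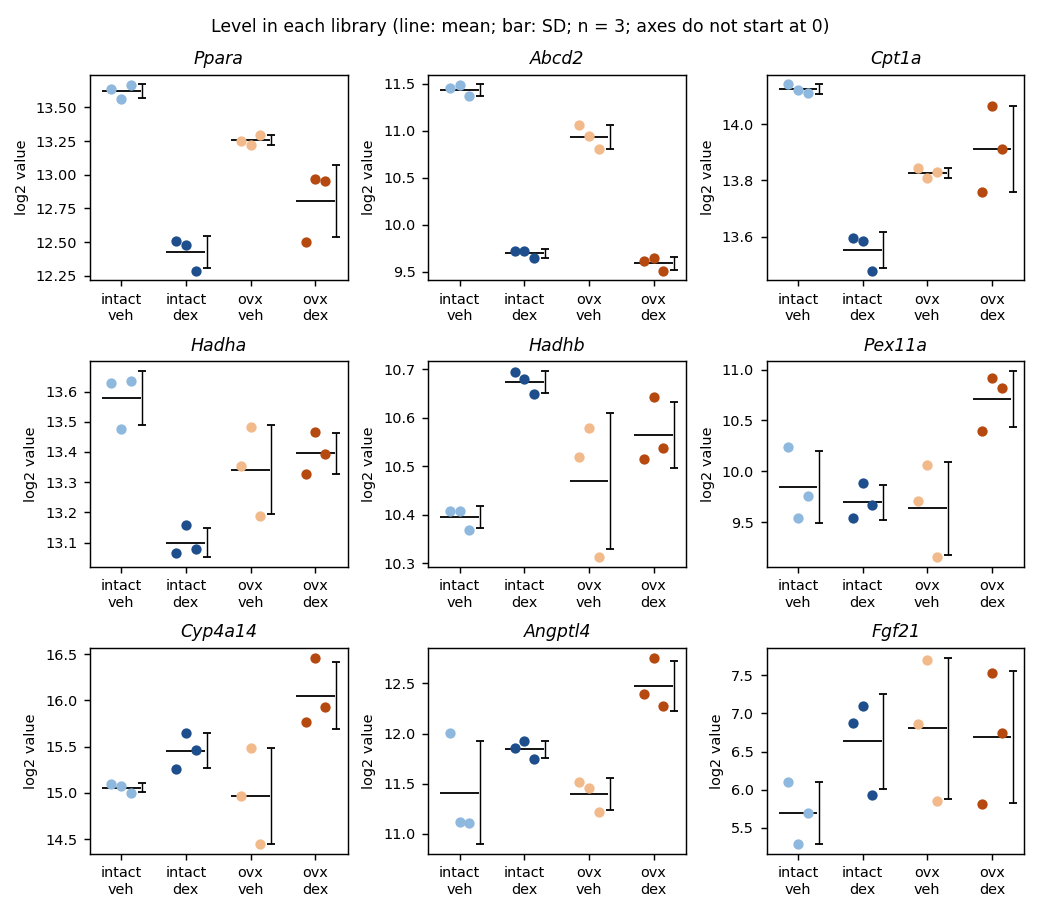
Points are deposited log2 values in each library, lines are group means and bars are SD (n = 3), with a separate axis for each gene that does not start at 0. Abcd2 is low in both dexamethasone groups, Hadha and Hadhb mirror each other in intact females, Pex11a and Angptl4 are high in the ovariectomized dexamethasone libraries, and the Fgf21 libraries of each ovariectomized group are spread widely.

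The response itself differed between gonadal states for 15 of the 35 genes, each with a higher (less negative or more positive) value in ovariectomized females, and for 0 in the other direction. Of all genes tested, 15.3% had a higher response in ovariectomized females and 9.65% a lower one, 24.9% in all. The median difference was 0.39 over the 35 and 0.01 over all genes tested. Among the 907 abundant genes 30% were higher and 4.96% lower, with a median of 0.21, and among the 26 members at that level the median was 0.41. Under quantile normalization 7 of the 35 were higher, all among the 15, and 2 were lower. The difference uses the vehicle libraries too, so it is not separate from the comparison of gonadal states under vehicle. All 6 genes that were lower after ovariectomy under vehicle (below) are among the 15.

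The difference was largest for Pex11a (1.22 ± 0.32, limma adjusted p = 0.0183), which changed by -0.15 in intact and 1.07 in ovariectomized females. Ppara differed by 0.75 ± 0.15 (adjusted p = 0.00548), its fall being 1.20 in intact and 0.45 in ovariectomized females. Cpt1a had the lowest adjusted p of the set (0.66 ± 0.099, limma adjusted p = 0.00128). Its fall of 0.57 in intact females stood against 0.08 ± 0.07 in ovariectomized females, where vehicle levels of 13.84, 13.81 and 13.83 and dexamethasone levels of 13.76, 14.06 and 13.91 overlapped. Ehhadh (0.65 ± 0.13), Etfdh (0.62 ± 0.11) and Hadha (0.53 ± 0.11) showed the same form, with values of -0.05, 0.17 and 0.05 in ovariectomized females that did not pass. These 6 calls held under each of the 23 alternatives run for the difference.

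The other 9 differences were smaller and were lost under at least 1 alternative. Hsd17b4 (0.51 ± 0.12), Decr2 (0.46 ± 0.11) and Acadl (0.29 ± 0.078) were lost under quantile normalization only, with adjusted p = 0.0538, 0.12 and 0.453. Abcd2 (0.39 ± 0.094) was lost only with the length and GC trends removed (0.22, adjusted p = 0.143). Bdh1 (0.39 ± 0.11) was at adjusted p = 0.0534 without intact vehicle replicate 3 and 0.429 under quantile normalization. Acadm (0.43 ± 0.13), Acads (0.35 ± 0.11), Hadh (0.34 ± 0.1) and Cpt2 (0.32 ± 0.11, adjusted p = 0.0494) were lost in 5 to 14 of the 23 alternatives, single libraries included. For Cyp4a10 (0.54 ± 0.27, adjusted p = 0.151), Cyp4a14 (0.69 ± 0.33, adjusted p = 0.141) and Angptl4 (0.65 ± 0.29, adjusted p = 0.119), which rose past the threshold in ovariectomized females alone, the difference between the responses did not pass.

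**Figure D4:**
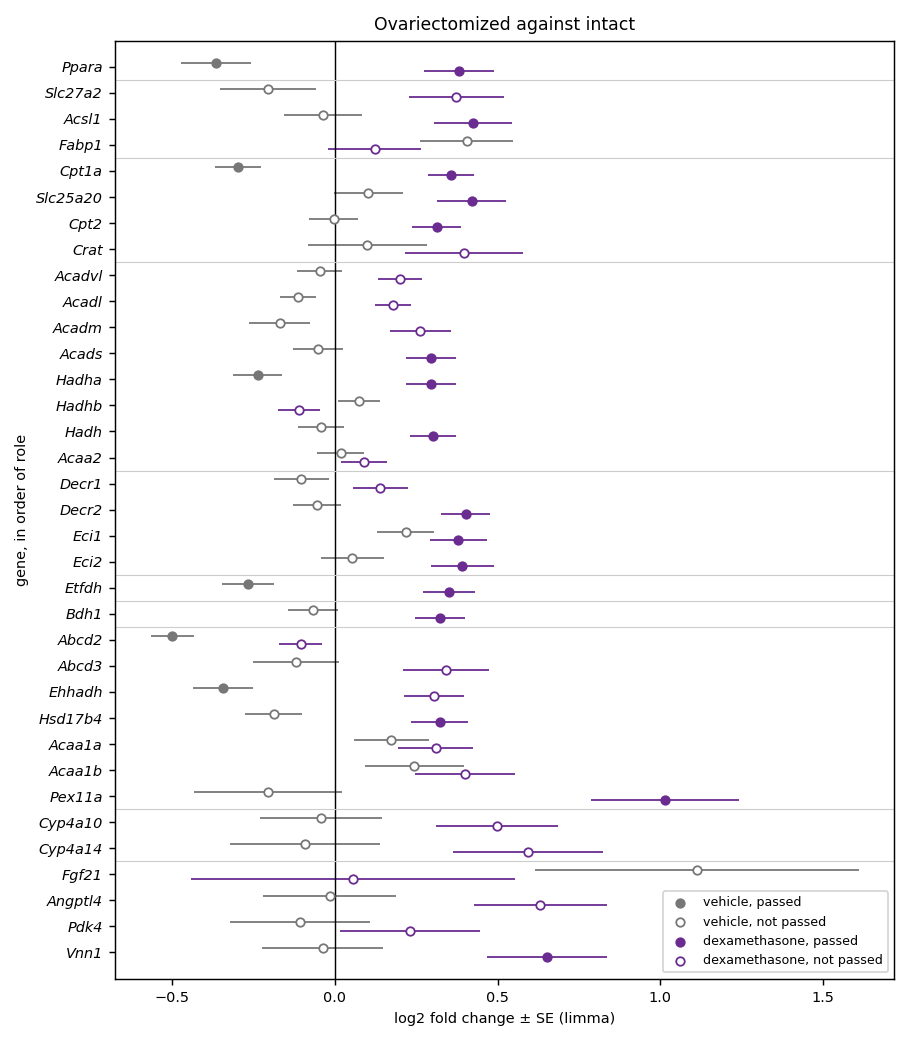
Points are log2 fold changes (ovariectomized against intact, n = 3 against 3 libraries) with SE bars under vehicle (grey) and dexamethasone (purple). Filled points passed at adjusted p under 0.05. Under vehicle 25 of 35 values are below 0, and under dexamethasone 33 of 35 are above 0. Medians over all genes tested were -0.01 under vehicle and 0.02 under dexamethasone. Over the 907 abundant genes (mean of at least 12) they were -0.04 and 0.15.

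Without dexamethasone, ovariectomy lowered 6 of the 35 genes (17.1%) and raised 0, against 15.5% and 12.4% of all genes tested (27.9% in either direction). The share lowered was thus near that of all genes tested. The median of the 35 was -0.05, against -0.01 over all genes tested. Of the 907 abundant genes 19.4% were lower and 12.7% higher, with a median of -0.04. Of the 26 members at that level 5 were lower and 0 higher, with a median of -0.06. Abcd2 was lower by 0.50 ± 0.067 (limma adjusted p = 0.00062) and Cpt1a by 0.30 ± 0.07 (adjusted p = 0.00971). The vehicle libraries of the 2 gonadal states, given above, did not overlap for either gene, and both calls held under each of the 18 alternatives. Ppara (-0.37 ± 0.11), Ehhadh (-0.35 ± 0.092), Etfdh (-0.27 ± 0.081) and Hadha (-0.24 ± 0.076) passed as well. These 4 were each lost when single libraries were left out, Ppara without intact vehicle replicate 1 or 3 or any ovariectomized vehicle replicate (adjusted p = 0.0511 to 0.0792). The 6 genes became 3 without intact vehicle replicate 1 or ovariectomized vehicle replicate 1, and 2 without intact vehicle replicate 3 or ovariectomized vehicle replicate 3. Without that last library 3 genes were higher in ovariectomized females. Fgf21 had the largest value of the set, 1.11 ± 0.5, and did not pass (adjusted p = 0.115). Its libraries were at 6.10, 5.28 and 5.69 in intact and at 6.87, 7.70 and 5.85 in ovariectomized females, with overlap. Markers differed here too. Of 7 Kupffer cell and macrophage markers 4 were lower in ovariectomized females and 0 higher, with summed levels of 13.26 to 13.28 in intact and 12.86 to 13.10 in ovariectomized females. Of 6 cholangiocyte markers 2 were higher and 0 lower. Of 8 hepatocyte markers 1 was higher and 2 lower. The part of these markers in the values above was not tested.

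Under dexamethasone, 16 of the 35 genes were higher in ovariectomized than in intact females and 0 were lower, against 7.74% and 5.08% of all genes tested (12.8% in either direction). The median of the 35 was 0.32, against 0.02 over all genes tested. The count moved with the settings, and so did the share of all genes tested that were higher, given here in parentheses. It was 1 under quantile normalization (3.09%) and 5 when only the libraries compared were fitted (3.07%). Leaving out 1 ovariectomized dexamethasone library gave 0 without replicate 3 (1.12%) and 3 without replicate 2 (5.18%). Leaving out 1 intact dexamethasone library gave 2 without replicate 1 (1.57%) and 6 without replicate 3 (6.03%). None of the 16 calls held under all 18 alternatives, although each of the 16 kept its sign in all of them. Of the 907 abundant genes 21.5% were higher and 0.662% lower, with a median of 0.15, against a median of 0.32 for the 26 members at that level. Marker lists differed between the same libraries. Of 7 Kupffer cell and macrophage markers 4 were lower in ovariectomized females and 0 higher. Of 8 stellate cell and fibroblast markers 3 were lower and 0 higher, with summed levels of 13.53 to 13.74 in intact and 12.99 to 13.21 in ovariectomized females. Of 8 hepatocyte markers 2 were higher and 0 lower, with summed levels of 22.07 to 22.18 in intact and 22.20 to 22.41 in ovariectomized females. Of 8 pericentral hepatocyte markers 1 was higher and 0 lower, with summed levels of 18.16 to 18.59 and 18.69 to 18.78. Of 8 periportal hepatocyte markers 0 were higher and 0 lower, with summed levels of 17.29 to 17.62 and 17.63 to 17.69. The summed level of the 3 neutrophil markers was 7.13 to 7.29 and 6.70 to 6.87, and 1 of them was lower. Their part in the differences was not tested.

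Pex11a showed the largest value under dexamethasone (1.02 ± 0.23, limma adjusted p = 0.0202). Its intact libraries were at 9.54, 9.88 and 9.67 and its ovariectomized libraries at 10.40, 10.92 and 10.82, a 2.02-fold difference without overlap. Leaving out replicate 1 of the intact or replicate 2 or 3 of the ovariectomized group ended the call, at adjusted p = 0.0544 to 0.0803. Decr2 (0.40 ± 0.075, adjusted p = 0.0111) was lost without ovariectomized dexamethasone replicate 3 (adjusted p = 0.0541) and under quantile normalization (adjusted p = 0.075). The carnitine shuttle genes Cpt1a (0.36 ± 0.07), Slc25a20 (0.42 ± 0.11) and Cpt2 (0.31 ± 0.076) were all among the 16, as were Acsl1, Eci1, Eci2, Etfdh, Bdh1, Acads, Hadha, Hadh, Hsd17b4, Vnn1 and Ppara. For Ppara the libraries overlapped, since ovariectomized replicate 1 stood at 12.50 and intact replicate 1 at 12.51. Abcd2, which differed between gonadal states under vehicle, was at 9.72, 9.72 and 9.64 in intact and 9.61, 9.64 and 9.51 in ovariectomized females under dexamethasone and did not pass (-0.11 ± 0.067, adjusted p = 0.301).

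**Figure D5:**
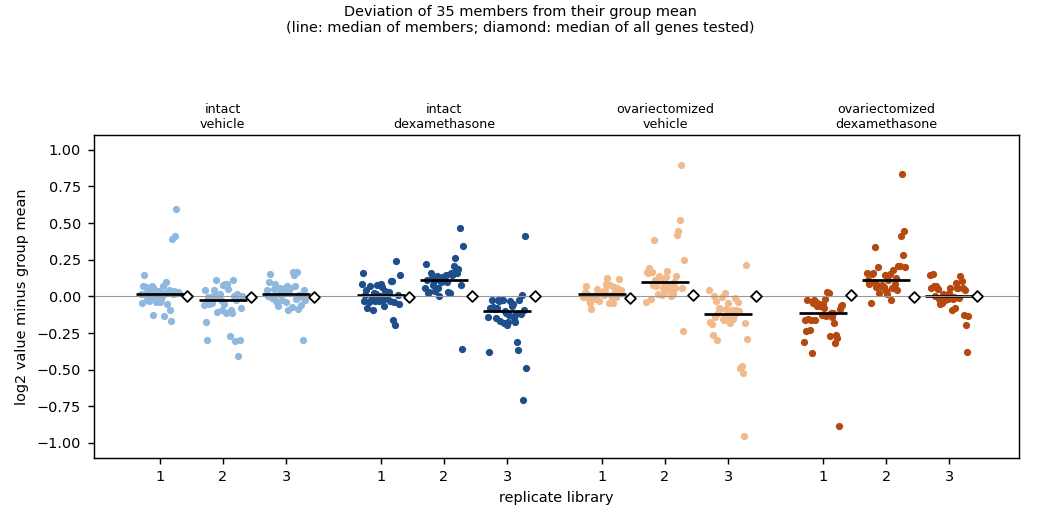
Each point is the log2 value of 1 of the 35 genes in a library minus its group mean, with the median of the 35 as a line and the median of all genes tested as a diamond. In 3 groups a library has nearly all genes above 0 and another nearly all below, while the diamonds stay near 0.

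The genes also moved together between replicate libraries of the same group. In intact dexamethasone, 34 of the 35 were above their group mean in replicate 2 and 2 of 35 in replicate 3, with median deviations of 0.11 and -0.10. In ovariectomized vehicle, 32 were above in replicate 2 and 4 in replicate 3 (0.10 and -0.12). In ovariectomized dexamethasone, 33 were above in replicate 2 and 2 in replicate 1 (0.11 and -0.12). The intact vehicle libraries had 22, 14 and 20 above, with median deviations between -0.03 and 0.02.

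All genes tested did not share these shifts: the share above the group mean was 44.1% to 53.6% in every library. Among the 907 abundant genes the share was 67.5% in intact dexamethasone replicate 2 and 38.6% in replicate 3. It was 55.2% and 62.8% in ovariectomized vehicle replicates 2 and 3, and 48.7% and 45.2% in ovariectomized dexamethasone replicates 2 and 1. Members that are far apart in function took part. Fgf21 was at 7.70 and 5.85, Cyp4a14 at 15.49 and 14.44 and Crat at 11.34 and 10.66 in ovariectomized vehicle replicates 2 and 3. In intact dexamethasone replicates 2 and 3 Vnn1 was at 10.95 and 10.12 and Slc27a2 at 15.52 and 14.92. Pdk4 went against the rest, at 7.34 and 8.12 in these last libraries.

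A list of 117 other genes of the pathway, 112 of them tested, was counted in the same way. With dexamethasone in intact females 17 rose and 46 fell (56.2% called, against 48.8% of all genes tested), with a median of -0.16. In ovariectomized females 30 rose and 18 fell (42.9% called, near the 40.7% of all genes tested), with a median of 0.04. The response was higher in ovariectomized females for 32 and lower for 2 (30.4% called, against 24.9%). Ovariectomized against intact, 6 were higher and 15 lower under vehicle (18.8% called, below the 27.9% of all genes tested), and 23 were higher and 1 lower under dexamethasone (21.4% called, against 12.8%).

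Values follow for the genes of that list with the largest changes in the dexamethasone comparisons. Plin5, a droplet coat protein of oxidative tissues, rose by 1.71 ± 0.14 in intact and by 2.44 ± 0.14 in ovariectomized females, and its relative Plin4 by 1.83 ± 0.38 and 2.19 ± 0.38. Lpin1, a phosphatidate phosphatase and coactivator of PPARalpha, rose by 1.59 ± 0.29 and 2.33 ± 0.29. Fabp4, a fatty acid binding protein of adipocytes and macrophages, rose by 1.45 ± 0.31 in intact females, and the droplet protein gene Cidec by 1.79 ± 0.23 in ovariectomized females. The largest falls were those of the acyl-CoA thioesterase genes Acot3 (-2.88 ± 0.3 in intact, -2.03 ± 0.3 in ovariectomized females) and Acot4 (-1.78 ± 0.135 and -0.87 ± 0.135), which are uncertain because they belong to a cluster of similar genes. Aldh3a2, which oxidizes fatty aldehydes, fell by 1.40 ± 0.12 in intact females. The acyl-CoA synthetase gene Acsl3 fell by 1.1 ± 0.1 in intact and by 1.04 ± 0.1 in ovariectomized females. Crot, the peroxisomal carnitine octanoyltransferase, fell by 0.71 ± 0.13 in ovariectomized females.

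Partners and coregulators of PPARalpha made up 17 of the tested genes on this list. With dexamethasone in intact females 3 rose and 7 fell (58.8% called, against 48.8% of all genes tested). In ovariectomized females 6 of the 17 rose and 1 fell. The share called in either direction (41.2%) was near the 40.7% of all genes tested, of which 21.3% rose and 19.4% fell. Rxra, which encodes the retinoid X receptor that pairs with PPARalpha and was chosen for mention after its values were seen, changed by -0.41 ± 0.061 in intact females and by 0.16 ± 0.061 (adjusted p = 0.0512) in ovariectomized females. The difference between these responses was 0.57 ± 0.086 (limma adjusted p = 0.00128).

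The identity of reads limits a few more of these values. Of the 50-base words of Acaa1a and Acaa1b, 34% and 35.5% occur in the other of the pair, and 7.2% of those of Eci2 in Eci3. The library kit named in the labels does not mark strand, and 45% of the exon bases of Acadvl overlap Dvl2 on the opposite strand, so reads of that stretch cannot be told apart. The same holds for 14.4% of Slc27a2 (Gm26697), 14.6% of Bdh1 (Gm15743), 13.3% of Acaa1b (Dlec1) and 10.8% of Eci2 (Gm16984).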

How the data were processed

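Per the labels' protocols, total liver RNA (TRIzol, then RNeasy) went into TruSeq V2 libraries that were read on a NextSeq. The tools Trim Galore, TopHat2, HTSeq, DESeq and DESeq2 and the build mm9 are named in the submitters' processing notes. Per the labels, the log2 values in the single table that the authors deposited are normalized gene counts; how they were transformed, and with which annotation, is not given in the sources used here.

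Of several entries for a symbol (392 symbols), only that with the highest mean was used. Genes with a mean of at least 4 were fitted in limma 3.58.1 under R 4.3.3 (lmFit, eBayes with a variance trend, 4 groups, 8 residual degrees of freedom) and Benjamini-Hochberg adjusted over all genes tested. The fit was tested on simulated data. The members, the list of other pathway genes and the markers were chosen with earlier results of these data known, and no list was tested as a set. Every member is named; of the other pathway genes, at most the 4 largest that passed per comparison and direction, and Rxra, chosen after its values were seen. Figures were drawn with matplotlib 3.10.9. Transcript sequences came from GENCODE M21 (GRCm38) and promoters from RefSeq (GRCm38.p6), matched by symbol; neither build is that of the table.

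Alternatives tried were quantile normalization, recentring to the same median, a linear pseudocount of 8, no filter on low values, a minimum mean of 6, a block for the replicate number, a fit to only the libraries compared, library weights, a robust prior, no variance trend, entries of a symbol summed, and each library left out in turn. A correction for transcript length and GC content in each library (splines with 4 degrees of freedom, 95.8% of genes matched) was chosen after seeing the data.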

Additional observations from a re-analysis of the deposited data

Results flagged for a closer look

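The response to dexamethasone differed between ovariectomized and intact females for 15 of the 35 genes by the limma test of the difference itself, each with the higher log2 fold change in ovariectomized females. Of all genes tested, 15.3% had a higher response and 9.65% a lower one, and of the 907 abundant genes 30% and 4.96%. In order of role the differences (ovariectomized minus intact, log2) were 0.75 for Ppara, 0.66 for Cpt1a and 0.32 for Cpt2. In the mitochondrial cycle they were 0.29 for Acadl, 0.43 for Acadm, 0.35 for Acads, 0.53 for Hadha and 0.34 for Hadh. Decr2 differed by 0.46, Etfdh by 0.62 and Bdh1 by 0.39. Among the peroxisomal genes Abcd2 differed by 0.39, Ehhadh by 0.65, Hsd17b4 by 0.51 and Pex11a by 1.22. These differences share libraries with the comparisons of gonadal states. Ppara, Cpt1a, Hadha, Etfdh, Abcd2 and Ehhadh were already lower after ovariectomy under vehicle. Of these calls only those of Cpt1a and Abcd2 held under every alternative. Ovariectomized against intact, Abcd2 was at -0.50 under vehicle and -0.11 (not passed) under dexamethasone, and Cpt1a at -0.30 and 0.36. Groups of 3 libraries are too small for a test of single outlying libraries.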

How the results depend on the processing

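No called change of the 35 genes turned its direction under any alternative. Under quantile normalization 6 genes rose with dexamethasone in intact females, 2 were higher and 4 lower after ovariectomy under vehicle, 1 was higher under dexamethasone, and the response was higher for 7 and lower for 2. With library weights these counts were 5 rising in intact females, 3 higher under vehicle, 28 higher and 2 lower under dexamethasone, and 25 higher and 2 lower for the response. The shares of all genes tested rose too with these weights, to 25.4% higher and 19.2% lower under dexamethasone and to 28.2% and 23.2% for the response. With only the libraries compared, 5 rose in intact females and 5 were higher under dexamethasone. With the length and GC trend removed 1 rose in intact females. Under vehicle 1 gene was higher with a mean of at least 6, recentring, no variance trend or a robust prior. Leaving out each library in turn gave 1 to 2 rising and 17 to 18 falling in intact females, 6 to 12 rising and 3 to 6 falling in ovariectomized females, 0 to 3 higher and 2 to 6 lower under vehicle, 0 to 18 higher and 0 lower under dexamethasone, and 11 to 21 higher and 0 to 1 lower for the response. Calls that held under every alternative were 16 of 19, 9 of 14, 2 of 6, 0 of 16 and 6 of 15 in that order. The labels number the replicates in each group, but of 18 same-numbered pairs of libraries only 6 correlated above 0.1 (r from -0.231 to 0.396), so the numbers were not taken as pairs. Pairs with different numbers had r from -0.470 to 0.425. Replicate 2 had the most of the 35 genes above the group mean in every group but intact vehicle, where it had the fewest. Whether the numbers mark a shared batch is not stated in the labels. With the replicate block, 2 rose and 17 fell in intact females, 10 rose and 5 fell in ovariectomized females, 0 were higher and 6 lower under vehicle, 18 were higher under dexamethasone and 18 for the response. In the block fit Abcd3 in ovariectomized females (limma adjusted p = 0.0566) and Acsl1 (0.0557) and Ppara (0.0544) under dexamethasone did not pass. Depth could not be read from the deposited values, so its limit on low genes such as Fgf21 is unknown. The causes of these changes were not tested.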
